A study of Mus musculus with 6 samples.

Results

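Fibroblasts of the Tbx18 line were the cells that the deposited annotation places in cluster 5 of the Tbx18-CreERT2/Ai14-flx single-cell data, and their transcripts were counted from the deposited matrix of unique molecular identifiers (UMIs). They numbered 131 of the 6578 Tbx18-line cells and of the 17033 cells in the 6 libraries of the series. Of these cells, 5 came from the naive library, 116 from the physical injury library and 10 from the ischemic injury library.

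The study traced pericyte lineages in the adult mouse cerebral cortex after injury, with single-cell RNA sequencing of sorted cells. In this line a tamoxifen-inducible Cre recombinase is driven by Tbx18, and Ai14 is a floxed reporter that gives red tdTomato fluorescence, so tdT marks cells that used the Tbx18 locus at the time of tamoxifen and their descendants, whatever their type. All animals were 3 to 4 months old, and injured animals received tamoxifen 7 days before injury and were killed 3 days after it. Physical injury was an intracerebral saline injection, ischemic injury was an injection of ET-1/L-NAME, a vasoconstrictor peptide with an inhibitor of nitric oxide synthesis, and naive animals had no injury. The NG2-Cre-ERT2/Ai14-flx line, with the same 3 conditions, enters below only as a comparison for the marker gate. Cells of several animals were pooled and sorted as tdT+/DAPI-, and each condition has 1 library. No value below therefore has a biological replicate, no test between conditions was possible, and every interval is a 95% interval for counting error only.

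Fibroblasts of the brain lie in the meninges and along the larger vessels that run inward from the surface, outside the smooth muscle layer. They secrete fibrillar collagen, proteoglycans and basement membrane, carry transporters that move solutes between cerebrospinal fluid, blood and tissue, and are a known source of scar matrix after injury. Pericytes, by contrast, sit within the capillary basement membrane, and both populations use the platelet-derived growth factor receptor beta gene, so that collagen and transporter genes are usually needed to separate them.

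The deposited label was checked against its markers, which is a description, since the clusters were formed on expression and named from such genes. Levels are given as CPM, the UMIs of a gene per 1000000 UMIs of all genes, summed over the cells of a cluster in a library. Decorin (Dcn, a small collagen-binding proteoglycan; chr10:97479609-97518143 in the GRCm38 annotation) stood at 2981 CPM in the naive cells, 5521 CPM in the physical injury cells and 6115 CPM in the ischemic injury cells of cluster 5. In cluster 4, which the study calls vascular-genic pericytes, Dcn stood at 393 CPM after physical injury, and in canonical pericytes (cluster 2) at 74.1 CPM. After that injury cluster 4 held little pericyte RNA: 9 pericyte genes summed to 142 CPM, against 20377 CPM in cluster 2. In cluster 4, 6 smooth muscle genes summed to 4487 CPM and 8 myeloid genes to 1645 CPM. The paper divided its injured cells into smooth muscle, microglia and fibroblast subclusters, so it is a mixed comparator. Lumican (Lum, a related proteoglycan; chr10:97565128-97572703) read 1090, 929 and 893 CPM in the 3 libraries, against 43.2 CPM in cluster 4. Col15a1, a collagen of the basement membrane zone (chr4:47208161-47313167), read 865, 850 and 954 CPM, against 3.30 CPM in cluster 4. These 3 genes were therefore far higher in cluster 5 than in clusters 2 and 4 in the library that holds most of the cells.

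The remaining 3 markers separated cluster 5 less from cluster 4. Col1a1, the alpha 1 chain of type I collagen (chr11:94936224-94953042), read 930, 1130 and 1614 CPM in cluster 5. In cluster 4 it read 417 CPM after physical injury and 1529 CPM after ischemic injury. Col3a1, the type III collagen chain (chr1:45311538-45349706), read 321, 708 and 1663 CPM, against 292 CPM in cluster 4 and 327 CPM in cluster 2. Spp1, the secreted glycoprotein osteopontin (chr5:104435118-104441050), read 2757, 2873 and 1675 CPM, and cluster 4 stood at 1065 CPM in the physical injury library and 2281 CPM in the ischemic library. Spp1 was thus lower in cluster 5 than in cluster 4 in the ischemic library.

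Cell by cell, 64 of the 116 physical injury cells carried UMIs of all 6 markers, 21 carried 5 of them, and 6 carried 1 or 2. All 6 were found in 6 of the 10 ischemic injury cells and in 3 of the 5 naive cells, and 1 naive cell carried only 2. Share of cells with a UMI depends on depth, so cells of the physical injury library were also thinned to 1000 UMIs each, which left out 3 of the 116 cells. Dcn was then found in 89.4% of cluster 5 cells and in 0.346% of endothelial cells (cluster 0), which should lack it. Before thinning these shares were 95.7% and 1.57%, at median depths of 7388.5 and 6701.5 UMIs per cell.

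Depth differed among the 3 libraries. The median cluster 5 cell held 3906 UMIs in the naive library (range 3462 to 11097), 7388.5 after physical injury (668 to 20570) and 9044.5 after ischemic injury (2091 to 15787). Summed over cells, cluster 5 held 31198, 867237 and 81769 UMIs, so that 3 UMIs, taken as the detection floor, correspond to 96.2, 3.46 and 36.7 CPM. Levels in the naive and ischemic cells are accordingly much less precise than those after physical injury. No barcode of a cluster 5 cell occurred in another library, although 30 barcodes were shared among the 6 libraries and 3 among the Tbx18 libraries.

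The share of cluster 5 among sorted Tbx18-line cells was 0.729% in the naive library (5 of 686 cells, exact Clopper-Pearson interval 0.237 to 1.69%). It was 3.02% after physical injury (116 of 3845, 2.50 to 3.61%) and 0.489% after ischemic injury (10 of 2047, 0.235 to 0.897%). The physical injury share exceeded the naive share by 2.29 percentage points (1.19 to 3.06), which is beyond counting error. Ischemic and naive shares differed by -0.240 points (-1.24 to 0.399), which was not detectable at this number of cells. Between the injuries the difference was -2.53 points (-3.17 to -1.87), with the lower share after ischemic injury.

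These shares refer to what passed the tdT sort, and the other cell types in the sort move them. Endothelial cells (cluster 0) made up 1488 of the 2047 ischemic cells and 1788 of the 3845 physical injury cells. Over clusters 1, 2, 4 and 5 alone, cluster 5 took 1.11% of naive cells, 6.72% of physical injury cells and 3.50% of ischemic injury cells. With that denominator the ischemic share lay 2.39 points above the naive share (0.0648 to 5.32), so the sign of this difference turned. A difference between libraries and a difference between conditions cannot be told apart with 1 library each.

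**Figure D1:**
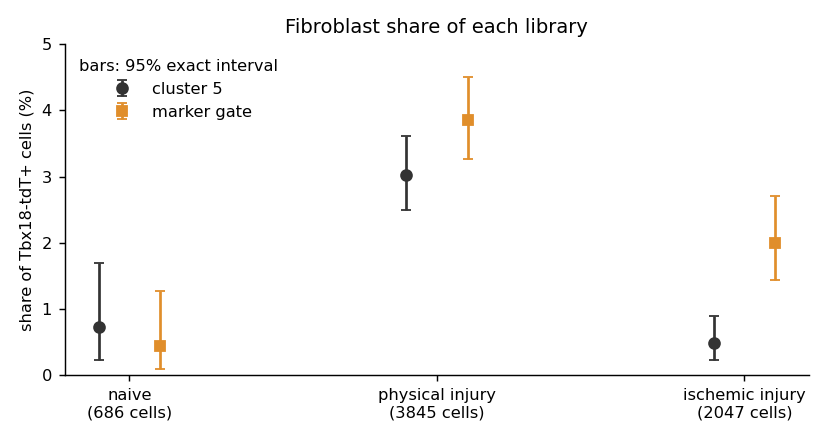
Share of sorted Tbx18-line cells, in percent, that belong to cluster 5 (circles) or pass the marker gate described further on (squares) in the naive, physical injury and ischemic injury libraries, with exact 95% intervals. Cluster 5 stands at 0.729%, 3.02% and 0.489%, while the gate stands at 0.437%, 3.85% and 2.00%, so the 2 measures differ most after ischemic injury.

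Within the physical injury library, the genes with the largest ratio of cluster 5 to the highest of the other 6 clusters included several extracellular matrix and transporter genes. Cemip, which takes part in the breakdown of hyaluronan (chr7:83932857-84086502), read 1332 CPM in cluster 5 and at most 2.20 CPM elsewhere. Lama1, the alpha 1 chain of laminin (chr17:67697259-67822647), read 955 CPM against at most 5.33. The GABA and taurine transporter Slc6a13 (chr6:121300227-121337733) read 2014 CPM against at most 29.0. Apart from Col15a1 and Lum, the other 10 of the 15 leading genes were Slc22a6, Fam180a, Slc7a11, Col13a1, Clec3b, Asic2, Igfbp2, Pdgfra, Kcnk2 and Necab1. Since the clusters were formed on these genes, the values describe the cluster and test nothing.

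These genes were also read in the few cells of the other libraries, at levels that in part differed beyond counting error. Cemip stood at 962 CPM in naive and 1810 CPM in ischemic cells, and its ratio of ischemic to physical injury was 1.36 (1.14 to 1.61). The TMM shift of -0.19 on the log2 scale brings the lower limit of that interval close to 1. Slc6a13 stood at 1859 and 1492 CPM, and that ratio was 0.741 (0.611 to 0.890). For Slc22a6, Slc7a11, Igfbp2 and Kcnk2 it was 0.661, 0.751, 0.642 and 0.678, with intervals below 1. The leading genes were picked on the physical injury library, which can by itself lower their ratios of ischemic to physical injury. Lama1 stood at 1058 and 991 CPM, with overlapping intervals in all 3 libraries. Fam180a was at 96.2 CPM, on 3 UMIs, in the naive cells, against 645 and 636 CPM after the injuries. The secreted tetranectin gene Clec3b had no UMI in the naive cells, against 253 CPM after physical and 404 CPM after ischemic injury. Asic2, an acid-sensing ion channel, read 2821, 1199 and 1272 CPM, but its UMIs came from 2 of 5, 59 of 116 and 3 of 10 cells.

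Promoters of leading genes are shown because these genes were high together in cluster 5, and because the line is driven by the T-box gene Tbx18. Promoter windows (RefSeq, GRCm38.p6) were read for 11 of the 15 genes, the others not being analysed here, and the 250 bases before each start were searched for the letters GGTGTGA of the T-box core and GTAAACA of the forkhead core on both strands, and TATAAA on the gene strand. The 11 genes have 18 such windows, since some have several starts. GGTGTGA was found in 1 of the 18 windows, against 3.33% of 32851 mouse promoters of that length, GTAAACA in 1 of 18 against 3.17%, and TATAAA in 2 of 18 against 7.59%. A match is a description of letters, and none of it says that a factor binds there. The Cemip window (chr7:84086506-84086755, minus strand) holds TATAAA from 29 to 24 bases before the start. That of Slc7a11 (chr3:50443614-50443863, minus strand) holds GGTGTGA from 20 to 14 bases before the start and the forkhead core on the other strand from 232 to 226 bases. The Tbx18 window (chr9:87731261-87731510, minus strand) had no match. Capitals mark the matches, and each sequence reads 5′ to 3′ towards the gene.
Cemip: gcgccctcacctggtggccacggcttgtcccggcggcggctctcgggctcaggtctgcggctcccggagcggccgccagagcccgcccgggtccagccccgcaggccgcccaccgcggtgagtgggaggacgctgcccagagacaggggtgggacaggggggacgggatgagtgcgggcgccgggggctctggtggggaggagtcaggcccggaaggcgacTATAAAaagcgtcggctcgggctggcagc
Slc7a11: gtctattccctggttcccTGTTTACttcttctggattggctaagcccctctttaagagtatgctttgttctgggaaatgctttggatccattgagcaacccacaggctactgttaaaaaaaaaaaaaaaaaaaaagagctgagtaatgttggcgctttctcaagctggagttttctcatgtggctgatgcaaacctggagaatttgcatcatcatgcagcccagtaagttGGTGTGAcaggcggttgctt
Tbx18: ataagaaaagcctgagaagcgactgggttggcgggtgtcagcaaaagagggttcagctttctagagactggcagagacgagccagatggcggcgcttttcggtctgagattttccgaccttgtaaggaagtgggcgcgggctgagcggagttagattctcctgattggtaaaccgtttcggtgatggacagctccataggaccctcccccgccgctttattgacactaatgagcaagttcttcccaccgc

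Set against canonical pericytes, cluster 4 and smooth muscle in the physical injury library, cluster 5 differed in many genes. A gene was counted when log2(CPM + 10) differed by at least 4-fold and the higher side held at least 20 UMIs. Against canonical pericytes, 344 of 8707 genes were higher (3.95%) and 337 lower (3.87%). Cluster 4 gave 481 of 8810 higher (5.46%) and 346 lower (3.93%), and smooth muscle (cluster 1) 610 of 9386 higher (6.5%) and 394 lower (4.2%). The median log2 ratio over all tested genes was -0.06, 0.24 and 0.09 in these comparisons. Scaling by trimmed means (TMM) moved the log2 ratio of CPM by -0.07, -0.56 and -0.59, and the median of all tested genes then stood at -0.11, -0.18 and -0.26. Higher genes then made up 37.2% rather than 58.2% of the calls against cluster 4, and 44.4% rather than 60.8% against cluster 1. Fold calls on the scale with a pseudocount understate the change of low genes.

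**Figure D2:**
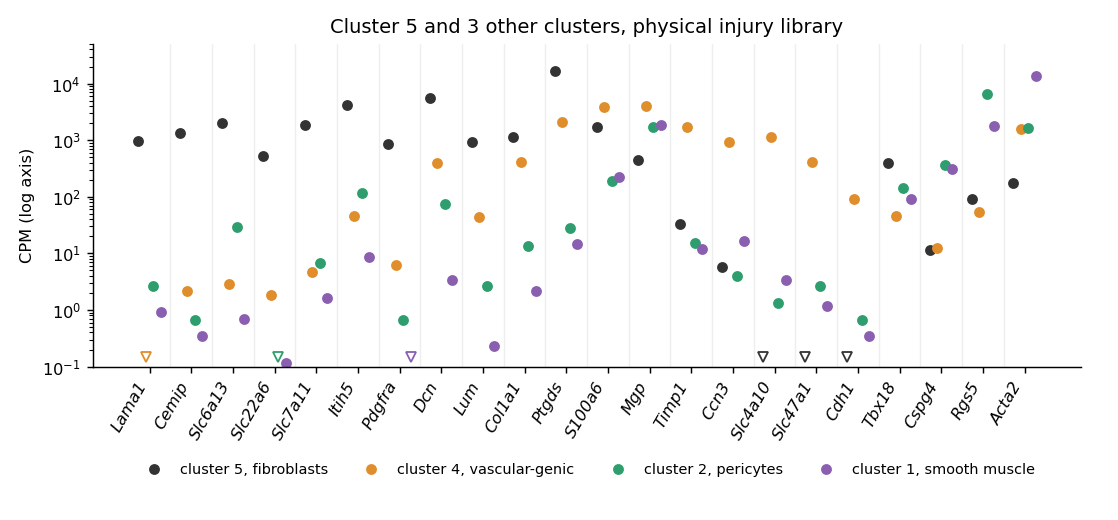
Level of 22 genes, in CPM on a log axis, in clusters 5, 4, 2 and 1 of the physical injury library, with open triangles at the bottom for genes with no UMI. Lama1, Cemip, Slc6a13 and Slc22a6 stand orders of magnitude above the other clusters in cluster 5, whereas Slc4a10, Slc47a1 and Cdh1 have no UMI there and stand highest in cluster 4.

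Basement membrane genes marked cluster 5 off from cluster 4 more completely than fibrillar collagens did. Of 14 basement membrane genes, 13 were at least 4-fold higher than in cluster 4, against 5.46% of all tested genes, and the median log2 ratio of the list was 2.98 against 0.24 over all tested genes. With TMM factors 8 of the 14 were, at a median of 2.49 against -0.18 over all tested genes. Col4a5 and Col4a6, which encode type IV collagen chains, read 714 and 619 CPM in cluster 5 and 5.49 and 1.83 CPM in cluster 4. Lama1 had no UMI in cluster 4 of this library (8 in that of the naive library), and Lamc1, the gamma 1 chain of laminin, read 686 against 54.9 CPM. Against canonical pericytes, which also lay down basement membrane, 4 of the 14 passed, against 3.95% of all tested genes, and the median was 1.06 against -0.06 over all genes. The laminin chain Lama4 was lower in cluster 5 than in pericytes, at 160 against 263 CPM. Fibrillar collagens were higher in cluster 5 than in each other cluster for 7 of 7 genes on the CPM scale, as were 19.1% of the 14200 genes with at least 20 UMIs in some cluster, yet 0 of 7 passed 4-fold against cluster 4 (5.46% of all tested genes higher and 3.93% lower), where their median log2 ratio was 1.04.

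Among the small leucine-rich proteoglycans, 6 of 8 were highest in cluster 5, against 19.1% of all genes. By 4-fold, 4 of the 8 were higher than in cluster 4 (5.46% of all tested genes), and 3 were higher (3.95%) and 1 lower (3.87%) than in pericytes. The exceptions were osteoglycin (Ogn), at 247 CPM against 298 in cluster 4, and asporin (Aspn), at 9.22 CPM against 418 in pericytes and 531 in smooth muscle. Of 10 matrix protease and inhibitor genes tested against cluster 4, 1 was at least 4-fold higher, against 5.46% of all tested genes, and 2 were lower, against 3.93%. Timp3, an inhibitor of metalloproteinases that is bound to matrix, read 1454 CPM in cluster 5 and 172 CPM in cluster 4, whereas the soluble inhibitor Timp1 read 33.4 and 1741 CPM. Of 11 activated fibroblast genes tested against cluster 4, 3 were at least 4-fold higher and 2 lower, against 5.46% and 3.93% of all tested genes, at a median log2 ratio of 0.43 against 0.24. Col12a1, a collagen that decorates fibrils, read 669 against 159 CPM. Acta2, the actin of smooth muscle and myofibroblasts, read 173 against 1549 CPM, Lox, which cross-links collagen, 40.4 against 116 CPM and the matrix protein gene Tgfbi 42.7 against 67.4 CPM. Postn, the matricellular protein periostin of scar fibroblasts, read 242 CPM in cluster 5 and 0.732 CPM in cluster 4, and Lrrc15, another gene of that list, had no UMI in the 116 cells, against 12.8 CPM in cluster 4. It also had no UMI in the naive cells of cluster 5 and 1 UMI in the ischemic cells.

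The solute carriers of the list, chosen with earlier results of these data known, fell on both sides. Of the 12, 7 were at least 4-fold higher in cluster 5 than in cluster 4, against 5.46% of all tested genes, and 5 were at least 4-fold lower, against 3.93%. Higher were Slc6a13, Slc6a20a (864 against 1.10 CPM), Slc13a3, Slc13a4, Slc22a6, Slc22a8 and Slc7a11. Slc22a6 and Slc22a8, organic anion transporters, read 518 and 491 CPM against 1.83 and 9.15 CPM, and the cystine and glutamate exchanger Slc7a11 read 1871 against 4.76 CPM. Lower were the bicarbonate transporter Slc4a10, with no UMI against 1149 CPM, the organic cation exporter Slc47a1, with no UMI against 416 CPM, the anion exchanger Slc26a7 (1.15 against 239 CPM), the ascorbate transporter Slc23a2 (93.4 against 515 CPM) and Slc16a9. At 1000 UMIs a cell, Slc47a1 was found in 0 of 113 cells of cluster 5 (exact upper limit 3.21%), in 26.1% of cluster 4 cells and in no endothelial cell. Lama1 was found in 53.1% of cluster 5 cells, in 0 of 337 cells of cluster 4 (exact upper limit 1.09%) and in 0.231% of endothelial cells. Slc6a20a did not set cluster 5 off from pericytes, where it read 643 CPM.

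By gene lists for the layers of the meninges, cluster 5 carried the general leptomeningeal and pial genes. Several arachnoid barrier and dural genes were lower than in cluster 4 after physical injury. All 10 leptomeningeal genes were highest in cluster 5 among the clusters of the physical injury library, and 9 of them were at least 4-fold above cluster 4 (7 with TMM factors). Of all genes, 19.1% were highest in cluster 5 and 5.46% of those tested were 4-fold above cluster 4. Ptgds, which makes prostaglandin D and is a classical product of these membranes, read 16685 CPM against 2073 in cluster 4. Pial genes were highest in cluster 5 for 4 of 5, the exception being S100a6, a calcium-binding protein, at 1686 CPM against 3841 in cluster 4. Of 9 arachnoid barrier genes, 4 could be tested against pericytes and against smooth muscle and all 4 were at least 4-fold higher in cluster 5, against 3.95% and 6.5% of all tested genes. With TMM factors 4 and 2 of them were. Against cluster 4, 1 of 7 was higher and 3 were lower, where 5.46% and 3.93% of all tested genes were. The adhesion gene Cdh1 had no UMI in any of the 131 cells, against 90.1 CPM in cluster 4, and the tight junction gene Cldn11 read 8.07 CPM against 187 in cluster 4. The gap junction genes Gjb6 and Gjb2 read 225 and 136 CPM, beside 224 and 152 CPM in cluster 4. In the ischemic cells of cluster 5 Cldn11 was 7.58 times its physical injury level (1.90 to 27.7), beside 197 CPM in ischemic cluster 4. The 9 arachnoid barrier genes summed to 192, 492 and 758 CPM in cluster 5 of the naive, physical and ischemic libraries. In cluster 4 they summed to 179, 856 and 663 CPM, so the sum was lower in cluster 5 only after physical injury. The keratin genes Krt18 and Krt8 of that list also had no UMI in the 131 cells, but they reached at most 2.20 CPM in the other clusters. Of the 5 arachnoid genes, Aldh1a2 was highest in cluster 5 and Slc47a1 and Crabp2 in cluster 4. Among dural genes 4 of 6 tested were at least 4-fold lower than in cluster 4, against 3.93% of all tested genes, with Mgp, an inhibitor of calcification, at 452 against 4016 CPM and the secreted Ccn3 at 5.77 against 944 CPM.

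Genes given for fibroblasts along vessels were high as well. Itih5, which binds and stabilises hyaluronan, read 4231 CPM in cluster 5 and 45.8 CPM in cluster 4, and 5 of the 6 genes of this list were at least 4-fold above cluster 4, against 5.46% of all tested genes. Vitronectin (Vtn), which pericytes also make, read 3085 CPM against 7714 CPM in canonical pericytes. Cluster 5 therefore carried genes of both the leptomeningeal and the perivascular lists.

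Signalling genes of cluster 5 included the retinoic acid enzymes. Aldh1a1 and Aldh1a2, which make retinoic acid, read 773 and 445 CPM against 26.7 and 44.7 CPM in cluster 4, whereas the binding protein Crabp2 was lower, at 16.1 CPM against 180 CPM. Of 8 retinoic acid genes tested against cluster 4, 3 were higher and 3 lower by 4-fold, where 5.46% and 3.93% of all tested genes were, and the median log2 ratio was -0.63 against 0.24 over all tested genes. Of 11 growth factor genes tested against cluster 4, 4 were at least 4-fold higher and 0 lower, where 5.46% and 3.93% of all tested genes were, and the median log2 ratio was -0.50 against 0.24, so that most of them read lower on the scale with the pseudocount. Of 6 genes for binding proteins of insulin-like growth factors 1 was higher and 1 lower, at a median of -0.52. The bone morphogenetic protein genes Bmp6 and Bmp7 read 920 and 511 CPM against 192 and 36.2 CPM in cluster 4. The growth factor Igf2 read 891 CPM against at most 83.5 CPM in any other cluster. The binding protein Igfbp2 read 1867 against at most 76.5 CPM. Cxcl12, a chemokine that retains leukocytes and progenitors, read 1199 CPM in cluster 5, between cluster 4 (176 CPM) and endothelial cells (2174 CPM). Of the cytokine and chemokine list, 4 of 10 tested genes were at least 4-fold higher and 3 lower than in pericytes, against 3.95% and 3.87% of all tested genes, and 2 of 8 (1 with TMM factors) were higher than in cluster 4, against 5.46%. Ccl2 read 54.2 CPM (58.6 CPM in cluster 4), Cxcl1 55.3 CPM and Ccl19 17.3 CPM, and Ccl11 and Il6 had no UMI. In canonical pericytes Ccl19 and Cxcl1 stood at 224 and 383 CPM.

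The transcript of the Cre driver was itself part of the profile. Tbx18 (chr9:87702800-87731260) read 801 CPM in naive, 390 in physical injury and 428 in ischemic injury cells of cluster 5, with intervals of 519 to 1183, 349 to 434 and 298 to 595. Pericytes of the physical injury library stood at 146 CPM, smooth muscle at 91.5 CPM and cluster 4 at 45.8 CPM, and endothelial cells held 1.62 CPM. The ratio of cluster 5 to pericytes was 2.68 (2.25 to 3.19). After thinning, a Tbx18 UMI was found in 32.7% of cluster 5 cells and in 0.115% of endothelial cells. Cspg4, which encodes NG2, read 11.5 CPM against 368 CPM in pericytes. Other transcription factors of the list varied against pericytes, with Foxc1 at 488 against 195 CPM, Zic1 at 603 against 402 CPM and the orphan nuclear receptor Nr2f2 at 796 against 818 CPM, while Prrx1 was lower, at 66.9 against 281 CPM.

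Markers of most other cells were low in cluster 5 but not absent from every library. All 5 astroglial, 3 neuronal and 4 skull or cartilage genes measured had no UMI in any of the 131 cells. Oligodendrocyte precursor genes (5) summed to 0, 13.8 and 12.2 CPM, oligodendrocyte genes (5) to 32.1, 24.2 and 0 CPM and Schwann cell genes (2) to 0, 2.31 and 0 CPM in the naive, physical and ischemic cells. The 2 choroid plexus genes summed to 128, 72.6 and 159 CPM, of which Ttr gave no UMI, against 473 CPM of Ttr in cluster 4. The 8 myeloid markers summed to 0, 112 and 36.7 CPM. Endothelial markers (6 genes) summed to 513, 330 and 147 CPM, against 16576 CPM in cluster 0. Smooth muscle markers (6 genes, led by Acta2) summed to 705, 390 and 97.8 CPM. Pericyte markers (9 genes) summed to 9872, 3487 and 3547 CPM, most of it Vtn. In the ischemic cells 6 of the 9, including Kcnj8, Abcc9 and Rgs5, had no UMI. The naive cells stood apart in this list, with the pericyte ATPase Atp13a5 at 897 CPM and the G-protein regulator Rgs5 at 769 CPM, against 69.2 and 92.2 CPM after physical injury. Rgs5 came from 2 of the 5 naive cells and from 7 of the 116. In the deposited clustering of the naive cells alone, 3 of the 5 lay in its cluster 7 and 2 in its cluster 6. None of the clusters that the paper names for its naive cells is called fibroblasts. Whether the deposited numbers follow those names was not checked. The part of pericyte RNA in the naive values was not tested.

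Cell-cycle genes were low. The 12 proliferation genes summed to 96.2, 81.9 and 97.8 CPM in the 3 libraries, and most of that was Pcna and Mcm6, which act in DNA replication. None of the 12 was highest in cluster 5, as 19.1% of all genes were, and 11 were highest in cluster 4, as 11.6% of all genes were, where the 12 summed to 484 CPM after physical injury. Top2a, which untangles DNA in dividing cells, was found in 1 of 116 cells of cluster 5.

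Across the 3 libraries most markers of cluster 5 stayed within a few fold of each other, and several collagen genes read higher in the ischemic cells. Between the injuries, 5 of 4265 genes in cluster 5 were at least 4-fold higher after ischemic injury (0.117%) and 221 were at least 4-fold lower (5.18%). Of the lower ones, 179 had no UMI in the 10 ischemic cells, and only 1 of those exceeded 4 times the ischemic detection floor in the physical injury cells. The median log2 ratio over all tested genes was -0.48, and -0.55 with TMM factors. Absence in the ischemic cells was therefore mostly not detectable as a difference at this depth.

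Against the 5 naive cells, the physical injury cells carried more of the lipocalin gene Apod (named after its values were seen), at 25747 against 7981 CPM, a ratio of 3.23 (2.85 to 3.67). The calcium-binding S100a6 had a ratio of 3.51 (2.12 to 6.28), Fos of 2.74 (2.05 to 3.75) and Dcn of 1.85 (1.51 to 2.30). Lower than in the naive cells were Vtn (0.422, 0.369 to 0.485), the growth factor Igf2 (0.434, 0.336 to 0.570), Col4a1 (0.444, 0.335 to 0.601) and Tbx18 (0.486, 0.324 to 0.762). The pericyte list moved with them, at 9872 CPM in naive against 3487 CPM in physical injury cells, and its part in these ratios was not tested. Apod, S100a6, Fos, Dcn, Vtn, Igf2 and Tbx18 lay on the same side of the naive level in the ischemic cells, at ratios of 3.59, 4.53, 1.53, 2.05, 0.450, 0.322 and 0.534 to naive, which share those 5 naive cells as denominator. For Col4a1 the ratio of ischemic to naive was 0.954, and its interval of 0.687 to 1.34 includes 1.

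Basement membrane genes summed to 10033, 6865 and 11068 CPM in the naive, physical and ischemic cells. None of the 12 tested passed 4-fold between the injuries. Of all tested genes 0.117% were higher and 5.18% lower, so the count is near the background. The median log2 ratio of the 12 was 0.58 against -0.48 over all tested genes, a reference that leans low with depth, as said above. Col4a6 read 737, 619 and 1834 CPM, with a ratio of ischemic to physical injury of 2.96 (2.46 to 3.56), and Col4a5 read 1090, 714 and 1345 CPM, with a ratio of 1.88 (1.52 to 2.31). Col4a6 UMIs came from 9 of the 10 ischemic cells. Fibrillar collagens summed to 3205, 3766 and 6041 CPM. Col3a1 had a ratio of 2.35 (1.94 to 2.83) and Col1a1 of 1.43 (1.18 to 1.71). These 4 collagen genes were higher in the ischemic than in the physical injury cells beyond counting error, but with 1 library each the spread between animals is unknown.

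Other genes read lower or higher with the library. Spp1 had a ratio of ischemic to physical injury of 0.583 (0.487 to 0.693), and Dcn of 1.11 (1.01 to 1.21), which the TMM shift of -0.19 on the log2 scale turns below 1. Immediate early genes summed to 4231, 10414 and 4990 CPM, with Fos at 1474, 4040 and 2262 CPM, and 3 of the 8 were at least 4-fold lower after ischemic injury, against 5.18% of all tested genes, at a median log2 ratio of -1.23 against -0.48. Hypoxia genes summed to 353, 587 and 881 CPM, and of the 2 that could be tested 0 passed 4-fold either way, at a median log2 ratio of -0.55 against -0.48 over all tested genes. The glycolytic enzyme gene Hk2 among them read 0, 21.9 and 183 CPM, but the naive floor is 96.2 CPM and its 15 ischemic UMIs came from 2 cells.

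Among genes with at least 20 UMIs on the higher side and a UMI in at least 25% of its cells, the one with the largest ratio towards ischemic injury on the scale with the pseudocount was Nasp, a histone chaperone, at 416 against 50.7 CPM, a ratio of 8.20 (5.08 to 13.1) on 34 UMIs from 5 of 10 cells. Hdac8, a histone deacetylase, had a ratio of 5.43 (3.09 to 9.27), Gk5, a glycerol kinase family member, one whose interval ran from 2.84 to 7.92, and Gucy1a2, a subunit of the nitric oxide receptor, one of 4.64 (2.86 to 7.34), and each came from 5 or 6 of the 10 cells. With TMM factors Gk5 and Gucy1a2, at log2 ratios of 1.92 and 1.90, were no longer past 4-fold. With means of per-cell CPM 2 genes were past 4-fold towards ischemic injury, and with cells thinned to 1000 UMIs 0 were. Thinned, the 10 ischemic cells hold too few UMIs for genes at these levels to reach the minimum of 20. That 0 therefore says nothing about these genes. The remaining gene past 4-fold, named after its values were seen, was the interferon-induced Ifitm1, whose 35 ischemic UMIs all came from 1 cell. Just outside the threshold lay Cblb, a ubiquitin ligase, with a log2 ratio of 1.89 on the scale with the pseudocount. Towards physical injury, the adhesion gene Negr1 read 191 CPM on 166 UMIs from 40 cells and had no UMI in the ischemic cells. It was at least 4.20-fold lower there by the limit of the counting interval, and 5.22-fold lower against the floor of 3 UMIs in that library. Dbp, a clock output gene, read 209 CPM against 1 ischemic UMI, which is below the floor of 36.7 CPM. Its ratio of physical to ischemic injury is therefore given only as at least 3.02, the limit of the counting interval. Negr1 and Dbp also had no UMI in the 5 naive cells, where the floor is 96.2 CPM.

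**Figure D3:**
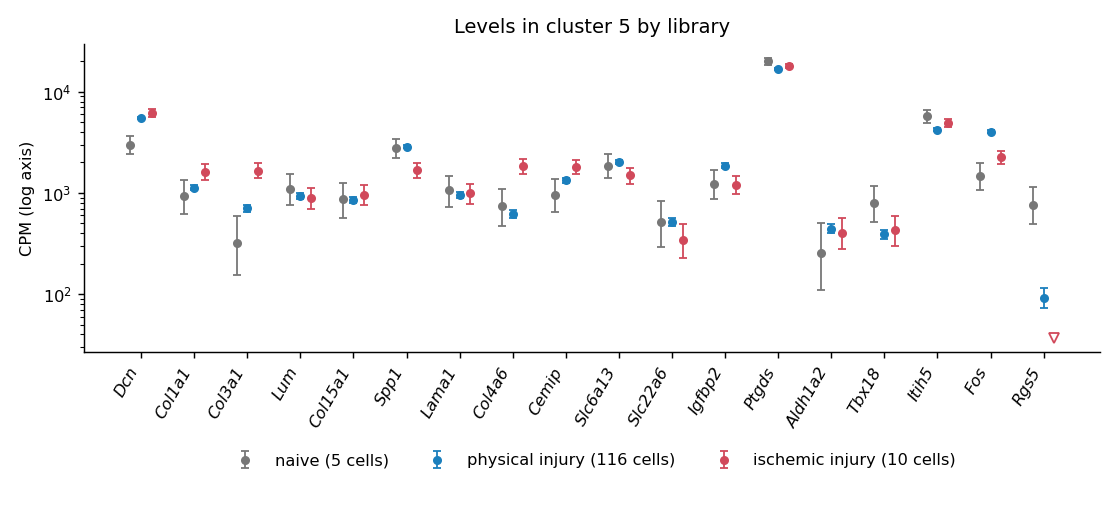
Level of 18 genes in cluster 5, in CPM on a log axis, in the naive (5 cells), physical injury (116 cells) and ischemic injury (10 cells) libraries, with exact 95% Poisson intervals and an open triangle at the 3-UMI floor where no UMI was found. Lum, Col15a1 and Lama1 keep similar levels, Col4a6 and Col3a1 stand highest after ischemic injury, and Rgs5 stands at 769 CPM only in the naive cells.

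Fibroblast transcripts were not confined to cluster 5, and the paper also described a fibroblast subcluster within cluster 4 after injury. A gate of at least 2 UMIs of at least 3 of the 5 genes Col1a1, Dcn, Lum, Col3a1 and Col15a1 was applied to every cell of the series. It was passed by 3 of 686 naive (0.437%), 148 of 3845 physical injury (3.85%, 3.26 to 4.51%) and 41 of 2047 ischemic injury cells (2.00%, 1.44 to 2.71%). By this gate the ischemic share lay 1.57 points above the naive share (0.559 to 2.35) and 1.85 points below the physical injury share, an interval of -2.71 to -0.930 for ischemic minus physical injury. In the NG2 line it was passed by 0 of 4306 naive cells (exact upper limit 0.0856%), by 1 of 2563 physical injury cells (0.0390%) and by 4 of 3586 ischemic injury cells (0.112%).

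After physical injury, 89 of the 148 gated cells lay in cluster 5 (60.1%, 51.8 to 68.1%) and 55 in cluster 4. After ischemic injury, 9 of 41 lay in cluster 5 (22.0%, 10.6 to 37.6%) and 31 in cluster 4. The gated cells of cluster 4 were 15.8% of that cluster after physical and 21.7% after ischemic injury. Gated cells had median depths of 8192 UMIs in cluster 5 and 9806 in cluster 4 after physical injury, and of 9152 and 12178 after ischemic injury. With every cell thinned to 1000 UMIs the gate was passed by 0.622% of physical injury, 0.199% of ischemic injury (4 cells) and 0.159% of naive cells (1 cell), so that ischemic and naive shares were not distinguishable at that depth.

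**Figure D4:**
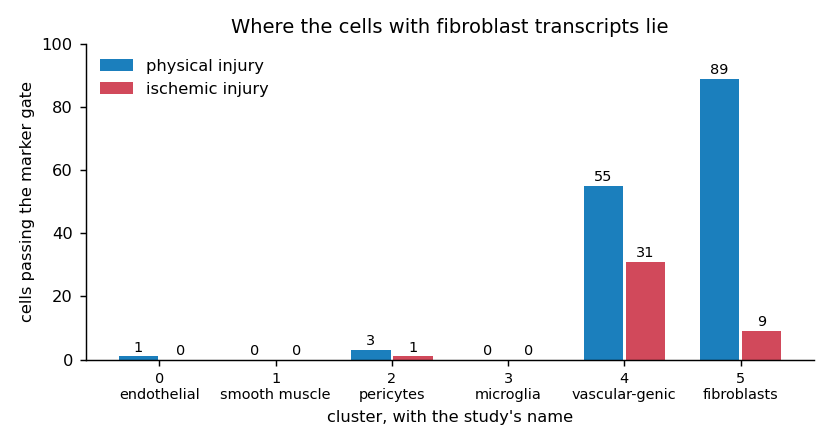
Number of cells that pass the fibroblast marker gate in clusters 0 to 5 of the physical and ischemic injury libraries of the Tbx18 line. Of the gated cells, 89 and 9 lie in cluster 5 and 55 and 31 in cluster 4, so cluster 4 holds most of them after ischemic injury.

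The split of each marker's UMIs shows the same. Cluster 5 held 79.0% of all Dcn UMIs of the physical injury library and 48.0% of those of the ischemic library, and cluster 4 held 17.7% and 48.9%. For Col1a1 the shares of cluster 5 were 44.5% and 6.09%, and those of cluster 4 were 51.7% and 91.8%. Col15a1 was divided otherwise, with 94.2% and 77.2% in cluster 5 and 1.15% and 0% in cluster 4. In the naive library cluster 5 held 41.0% of Dcn and cluster 4 held 37.4%. Most Col1a1 transcripts of the ischemic library thus lay outside cluster 5.

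Gated cells of the 2 clusters were not alike. They were split by cluster label, and the clusters were formed on expression, so these differences describe the split and test nothing. In the physical injury library, Lama1 read 906 CPM in gated cells of cluster 5 and had no UMI in those of cluster 4. Slc6a13 read 2066 against 6.35 CPM, Cemip 1335 against 3.18 CPM, Pdgfra 903 against 6.35 CPM and Itih5 4445 against 47.6 CPM. In the other direction, Slc4a10 read 0 against 638 CPM, Slc47a1 0 against 376 CPM, Timp1 35.5 against 2430 CPM and Ccn3 6.33 against 940 CPM. Named after their values were seen, the glutamate transporter Slc1a3 read 1562 against 1.59 CPM, Ecrg4 0 against 719 CPM and the opioid precursor Penk 0 against 443 CPM. Col1a1, one of the genes that define the gate, read 1197 against 970 CPM after physical injury, and the selection in part sets how alike these levels are. After ischemic injury Col1a1 stood at 1644 CPM in gated cells of cluster 5 and 4224 CPM in those of cluster 4, while Lama1 again had no UMI in cluster 4 and read 979 CPM in cluster 5. Pdgfra is 1 of 8 genes of the pan-fibroblast list. Over all physical injury cells, 2 of the 8 were at least 4-fold higher than in cluster 4 and 0 lower. With TMM factors 1 was higher and 2 were lower. Of all tested genes 5.46% were higher and 3.93% lower. Fbln1 and Fn1 of that list had ratios to cluster 4 of 0.301 and 0.302.

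The 131 cells were also compared among themselves, and unsupervised grouping gave 3 groups. The groups were formed on the variable genes of these same counts, so gene differences among them describe the grouping and test nothing. Group 1 held 63 cells (3 naive, 54 physical and 6 ischemic), group 2 held 54 (2, 49 and 3) and group 3 held 14 (0, 13 and 1). Immediate early genes led group 2. Junb, a subunit of the AP-1 transcription factor, read 216 CPM in group 1, 2460 in group 2 and 29.5 in group 3, and Fos read 956, 6494 and 147 CPM. The 8 immediate early genes summed to 2369, 16703 and 472 CPM. These genes are known to respond to many stimuli within minutes. Group 2 also carried more smooth muscle RNA (649 CPM over 6 genes against 71.1 CPM in group 1), endothelial RNA (478 against 154 CPM) and myeloid RNA (169 against 29.8 CPM). Median doublet scores were 0.0308, 0.0488 and 0.0925 in groups 1, 2 and 3, and the part of any of these in the grouping was not tested. Its Mgp read 743 CPM against 59.6 CPM in group 1.

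Group 1 was led by genes with smaller ratios. Among them, named after their values were seen, were the adrenergic receptor Adra1a at 339 CPM against 84.3 CPM in group 2, the ephrin receptor Epha3 at 383 against 123 CPM, and Asic2 at 2009 against 692 CPM. Lama1 read 1215 against 800 CPM and Tbx18 518 against 329 CPM. The basic fibroblast genes were at similar levels in groups 1 and 2, with Dcn at 4852 and 5798 CPM and Lum at 933 and 898 CPM.

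Group 3 was shallow, with a median of 2386.5 UMIs and 942 genes per cell against 6331 and 8222 UMIs in groups 1 and 2, and a median mitochondrial share of 6.05% against 2.31% and 2.21%. Apolipoprotein D (Apod, a carrier of small lipids, described above; chr16:31296192-31314808) took 9.51% of its UMIs, against 2.09% and 2.46%. Ribosomal protein genes took 11.1%, against 3.06% and 4.34%. Ptgds read 42559.5 CPM against 14951 and 16856, and Dcn 9048 CPM, whereas Lama1 (118 CPM) and Tbx18 (118 CPM) were lower than in the other groups. Depth and RNA content move with this group. With cells thinned to 1000 UMIs before clustering, 13 of 13 cells of group 3 stayed together, in a group of 22. Of groups 1 and 2, 52 of 61 and 46 of 54 cells did, in groups of 57 and 49. The part of RNA content in group 3 was not tested. Without its 14 cells, a setting chosen after seeing the data, 5 genes were 4-fold higher and 235 lower after ischemic injury, and 207 of the lower ones were shared with the count over all cells.

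**Figure D5:**
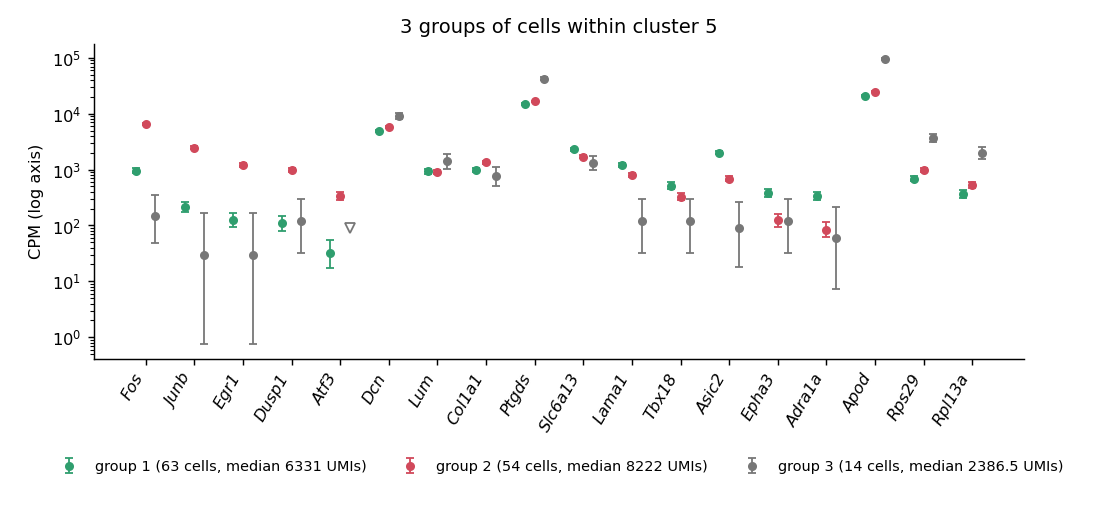
Level of 18 genes, in CPM on a log axis, in the 3 groups of cells within cluster 5 (63, 54 and 14 cells), with exact 95% Poisson intervals and an open triangle at the 3-UMI floor where no UMI was found. Fos, Junb, Egr1 and Dusp1 stand highest in group 2, Apod and Ptgds in group 3, and Dcn and Lum differ little between groups 1 and 2.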

How the data were processed

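Cortical tdT+/DAPI- cells of each line and condition were pooled over animals, sorted and sequenced with the 10x 3′ kit, and 1 library was made per condition. The authors counted UMIs per gene and cell with Cell Ranger (version 7.0.0 per the submitters' processing notes, with earlier versions named in the methods) against mm10, and deposited these counts without normalization after leaving out cells with fewer than 200 genes, more than 12% mitochondrial transcripts or values beyond 2 SD. The deposited percent of mitochondrial UMIs and the cluster numbers came from the authors' Seurat objects, in which SCT-normalized libraries were integrated and clustered.

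Here levels are CPM of the UMIs added up within one cluster of one library. Poisson limits for levels were exact, as were Clopper-Pearson limits for shares. Differences of shares carry an interval built from both exact limits and ratios a conditional binomial interval. All intervals are at 95% and cover counting error only. Ratios used a pseudocount of 10 CPM, and a call needed 4-fold and at least 20 UMIs on the higher side. Total UMIs were 3153996, 30196989 and 20308437 in the naive, physical and ischemic Tbx18 libraries. Genes named are those of 37 lists (263 genes), the 15 with the largest ratio of cluster 5 to the highest other cluster and the 15 with the largest ratio each way between the injuries, with a UMI in at least 25% of the cells, mitochondrial and hemoglobin genes excepted. The members and lists were chosen with earlier results of these data known. Groups within cluster 5 were Leiden clusters (resolution 0.5, 15 neighbours, 10 components of 1000 variable genes, scanpy 1.11.5, leidenalg 0.10.2). Doublets are not mentioned in the methods: Scrublet called 49 of 6578 Tbx18 cells (0.745%), 2 of them in cluster 5, and no cell was removed. Of the 118 highest scores of the physical injury library 16 lay in cluster 5 (13.6%, where cluster 5 is 3.02% of that library), whose median score after ischemic injury was 0.105 against 0.0521 over all cells of that library. TMM factors came from edgeR 4.0.16 in R 4.3.3, and the rest was done in Python 3.11.15 with numpy 2.4.6, scipy 1.17.1 and pandas 2.3.3. Positions are 1-based GENCODE coordinates of GRCm38, and promoters are RefSeq entries of GRCm38.p6. Alternatives were other scalings, pseudocounts, denominators, gates and resolutions, thinning, the methods' filters applied again and the removal of high Scrublet scores.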

Additional observations from a re-analysis of the deposited data

How the results depend on the processing

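Of the other settings tried for the counts, shares and differences reported, 53 gave a value within the limits of the one reported and 34 did not, and of those for single named genes 344 kept direction and side of 4-fold, 13 fell below it, 2 passed it and 1 turned its sign. With clusters 1, 2, 4 and 5 as the denominator the physical and ischemic injury shares were 6.72% and 3.50%, and the differences were 5.62 (physical minus naive), 2.39 (ischemic minus naive) and -3.23 points (ischemic minus physical). With the marker gate the shares were 3.85% and 2.00% and the differences 3.41, 1.57 and -1.85 points. The difference of ischemic from naive changed sign in both settings. With a pseudocount of 1 CPM, 598 genes were lower than in cluster 2, 774 higher and 824 lower than in cluster 4, 938 higher and 874 lower than in cluster 1, and 487 lower after ischemic than after physical injury, and TMM factors gave 561 lower than in cluster 4. Genes higher after ischemic injury numbered 3 with TMM factors, 3 with median-of-ratios size factors, 59 with no minimum of UMIs (21.1% of the calls in place of 2.21%), 2 with means of per-cell CPM and 0 with cells thinned to 1000 UMIs, where 93 were lower. Thinned, the log2 ratio of Snx29 was -0.18 in place of 1.78. The gate held 5.41% and 3.18% of physical and ischemic injury cells of the Tbx18 line with 1 UMI in place of 2, 2.34% and 0.879% with 4 of 5 genes and 0.622% and 0.199% with thinned cells, and in the NG2 line 0% and 0% under the last 2. At a resolution of 1.0 there were 8 groups within cluster 5. Apart from changes that follow from the setting itself, causes were not tested. Of settings chosen after seeing the data, leaving out group 3 kept the counts between the injuries within 1.5 times. Scaling the genes gave 4 groups in place of 3 and kept 32 of 63, 41 of 54 and 13 of 14 cells of groups 1, 2 and 3 together, and leaving out immediate early genes gave 4 and kept 47, 36 and 14. The 5 naive and 10 ischemic cells set the depth: a gene needs 96.2 or 36.7 CPM there to reach 3 UMIs. No paired analysis was possible because each condition has 1 library.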

Other observations

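The 12 collagen maturation genes summed to 1474, 2012 and 1847 CPM in the naive, physical and ischemic cells of cluster 5, and 0 of the 10 tested passed 4-fold against cluster 4, where 5.46% of all tested genes were higher and 3.93% lower, which for 10 genes is near that background. Pcolce, which enhances the trimming of procollagen, read 705, 801 and 501 CPM, and the collagen chaperone Serpinh1 read 513, 612 and 550 CPM, against 535 CPM in cluster 4 of the physical injury library. Lox, which cross-links collagen, read 40.4 CPM after physical injury in cluster 5 and 116 CPM in cluster 4. Plod2, a lysyl hydroxylase, had no UMI in the naive cells, where the floor of 96.2 CPM lies above its level after physical injury. It stood at 65.7 and 208 CPM after physical and ischemic injury, a ratio of 3.16 (1.72 to 5.52) on ischemic UMIs from 5 of 10 cells.

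Vegfa, the vascular growth factor, read 160, 180 and 232 CPM with overlapping intervals, against 17.2 CPM in cluster 4. Igfbp5, a binding protein of insulin-like growth factors, had no UMI in the naive cells, read 288 CPM after physical injury from 43 of 116 cells and 587 CPM after ischemic injury from 4 of 10 cells. Serping1, the inhibitor of complement C1, read 353, 568 and 832 CPM, and was found in 4 of 5, 96 of 116 and 9 of 10 cells.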
